A study of Mus musculus with 4 samples.

Results

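Non-classical monocytes of the bone marrow were taken as the cells with at least 1 UMI (unique molecular identifier, a count of captured transcripts) of Csf1r, at least 2 UMIs of Ace, Treml4 and Cd300e together, at most 3 UMIs of Ly6c2 and none of Mki67 or Top2a. The gate was applied to cells with at least 300 detected genes and at most 20% mitochondrial UMIs, and it held 149 of 39743 such cells. These cells were therefore chosen by their own counts of these 7 genes, whose values are given below as a description and without a test. The PM libraries contributed 16 and 16 of the 149 cells, and the vehicle libraries 68 and 49.

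Purinostat mesylate (PM), a hydroxamic acid that inhibits class I and class IIb histone deacetylases (HDACs), was given to mice of the 5TMM model, in which 5TGM1-luc mouse myeloma cells are injected into the vein of C57BL/KawRij mice and grow in the marrow. The mice were 6 weeks old at inoculation and carried the tumour for 3 weeks before treatment. All 4 mice thus bore myeloma, 2 received vehicle and 2 received PM at 10 mg/kg, marrow was taken 24 h later, and no tumour-free mouse was compared here. Red cells were lysed, and 1 droplet-based 3′ library was made per mouse, so that each group had n = 2. Every p-value for PM against vehicle from all 4 libraries rests on the spread between 2 mice per group. Comparisons between cell populations use all 4 mice. A fit of PM against vehicle with 1 library left out has 1 mouse in that group. That mouse is taken to vary as the other group does, so calls from such fits are a description and no replicated evidence.

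Non-classical monocytes are the long-lived monocytes that crawl along the inner wall of small vessels, take up debris and sense damage there. In the mouse they derive from Ly6c2-high (classical) monocytes in the marrow, a step that depends on the nuclear receptor Nr4a1 and on the enhancer factor Cebpb, and they need signals through Csf1r, the receptor for macrophage colony-stimulating factor, to survive. Ace encodes the angiotensin-converting enzyme, Treml4 and Cd300e encode immunoglobulin-like receptors of myeloid cells, Cx3cr1 encodes the receptor for fractalkine on endothelium and Fcgr4 encodes an activating receptor for IgG.

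The libraries held 9516 and 8242 barcodes for vehicle and 13848 and 9787 for PM, of which 9261, 7826, 13387 and 9269 passed the cell filter. Their summed counts were 86052982 and 69828595 UMIs for vehicle and 109447030 and 74388936 UMIs for PM. Any pair of libraries shared between 18 and 39 barcodes. The median depth of the non-classical cells was 4700.5 and 5257 UMIs with vehicle and 3019 and 3263 UMIs with PM, so the PM cells were shallower in both mice. Their summed counts were 374519 and 281976 UMIs with vehicle and 60029 and 60226 UMIs with PM, and 1 UMI in a PM sum stood for 16.7 CPM (counts per 1e6 UMIs).

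The label was checked against its 6 markers in the counts summed over the gated cells of each library. Ace reached 574 and 582 CPM with vehicle and 650 and 714 CPM with PM. Treml4 reached 238, 234, 183 and 332 CPM in the same order of libraries, and Cd300e 117, 149, 233 and 282 CPM. Csf1r lay between 700 and 946 CPM. Those 4 genes had been used by the gate, and Cx3cr1 and Fcgr4 had not. Cx3cr1 was at 443 and 603 CPM with vehicle and at 317 and 681 CPM with PM, and Fcgr4 at 1065, 340, 716 and 498 CPM, so the groups overlapped for both.

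Transcripts released into the droplet fluid can put UMIs into cells that do not express a gene. T cells, gated on Cd3d, Cd3e and Cd3g without Csf1r or Cd79a, were used to gauge that background. That gate did not leave out cells with neutrophil genes, and 12 neutrophil markers summed to 45411 to 126992 CPM in it. Its values thus need not be free RNA alone. None of 1477 T cells held an Ace UMI, which allows a share of up to 0.203%, 1 held a Cd300e UMI and 24 (1.62%) held a Treml4 UMI. In cells thinned to 2000 UMIs, Cx3cr1 was detected in 57.8% and 66.0% of the non-classical cells with vehicle and in 69.2% and 66.7% with PM, against 0%, 0.98%, 0.173% and 1.02% of the T cells. Thinned Fcgr4 was detected in 65.6%, 51.1%, 76.9% and 60% of the non-classical cells and in 1.79% to 3.59% of the T cells. Cx3cr1 and Fcgr4, which the gate had not used, thus stood above the T cell level in each library. For Ace, Treml4 and Cd300e the choice of the cells fixed this. Before thinning, Cx3cr1 was detected in 76.5%, 83.7%, 68.8% and 81.3% of the non-classical cells, whose median depth is given above, and in 0.448% to 1.44% of the T cells, whose median depth was 3698 to 4185 UMIs.

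Within the gate, Ace was found in 57 of 68 and 44 of 49 vehicle cells and in 12 of 16 and 13 of 16 PM cells. Treml4 was found in 50, 35, 8 and 12 cells of the same libraries and Cd300e in 22, 20, 8 and 11. Ly6c2, which encodes the surface antigen that marks classical monocytes, was at 0 in 47 of 68 and 35 of 49 vehicle cells and in 9 of 16 and 5 of 16 PM cells. The cells with no Ly6c2 UMI and those with 1 to 3 differed in S100a8, a calcium-binding alarmin of neutrophils and classical monocytes, in 3 of the 4 libraries. It was at 451 CPM against 8456 CPM in vehicle replicate 1, 996 against 6989 CPM in PM replicate 1 and 283 against 5579 CPM in PM replicate 2, and at 454.6 against 270.3 CPM in vehicle replicate 2. Adgre4, an adhesion receptor of mature monocytes, was the higher in the cells without Ly6c2 in all 4, at 623 against 445 CPM and 775 against 350 CPM with vehicle and at 546 against 450 CPM and 1201 against 781 CPM with PM. Other genes of mature monocytes had no common order. Cd36 was at 135 against 43.9 CPM and 250 against 23.8 CPM with vehicle but at 257 against 484 CPM and 212 against 326 CPM with PM, where the cells with 1 to 3 Ly6c2 UMIs were the higher. Cells with Ly6c2 UMIs were also the higher for Fcgr4 in PM replicate 1, for Ear2 in PM replicate 2, for Cx3cr1 in vehicle replicate 2 and PM replicate 2 and for Nr4a1 in both PM libraries. Called doublets were 2 of 21, 1 of 14, 2 of 7 and 0 of 11 of the cells with 1 to 3 Ly6c2 UMIs and 1 of 47, 0 of 35, 0 of 9 and 0 of 5 of those with none, and their part in these differences was not tested.

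At the lower edge of the gate, 17, 11, 8 and 4 cells held exactly 2 UMIs of Ace, Treml4 and Cd300e. Just outside it, 30, 36, 17 and 25 cells met the other conditions with 1 UMI. The cells just inside had Cx3cr1 at 385, 530, 431 and 520 CPM and those just outside at 219, 391, 130 and 263 CPM. S100a8 was at 6925, 241, 1251 and 595 CPM just inside and at 28594, 11589, 57246 and 40619 CPM just outside. A further 20, 17, 15 and 11 cells passed the conditions on Ace, Treml4 and Cd300e but held 4 or more Ly6c2 UMIs, and they belong to neither of the populations compared below.

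The first comparison asked whether the share of non-classical monocytes in the marrow differed between PM and vehicle. They made up 0.734% (95% exact Clopper-Pearson interval 0.571 to 0.930) and 0.626% (0.464 to 0.827) of the cells with vehicle. With PM they made up 0.1195% (0.0683 to 0.194) and 0.173% (0.0987 to 0.280). The intervals of the PM libraries did not reach those of the vehicle libraries. These intervals cover counting error within a library only. The group means were 0.680% ± 0.0765 (SD, n = 2) and 0.146% ± 0.0375 (SD, n = 2), a 4.66-fold lower share with PM, lower in 4 of 4 vehicle-PM pairs. The exact two-sided permutation test over libraries gave p = 0.333, which is the smallest value that 2 mice against 2 can give.

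The same comparison was made with Csf1r-positive cells as the denominator. Of the Csf1r-positive cells without Mki67 or Top2a, 7.16% (5.60 to 8.99) and 6.89% (5.14 to 9.01) were non-classical with vehicle and 1.54% (0.882 to 2.49) and 2.71% (1.56 to 4.36) with PM. The mean was 3.31-fold lower with PM, lower in 4 of 4 pairs (exact permutation p = 0.333, the smallest possible). Ly6c2-high monocytes, gated on at least 1 Csf1r UMI, at least 4 Ly6c2 UMIs, at most 1 UMI of Ace, Treml4 and Cd300e and no Mki67 or Top2a, numbered 499 and 304 cells with vehicle and 708 and 334 cells with PM. That was 5.39% and 3.88% of the cells in the vehicle libraries and 5.29% and 3.603% in the PM libraries, so that these values interleaved. The non-classical cells were 11.99% and 13.9% of both populations together with vehicle and 2.21% and 4.57% with PM.

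A shallow cell passes the lower limits of a gate on counted molecules less easily and its upper limits, as on Ly6c2, more easily. The PM cells were shallower. With every cell of at least 2000 UMIs thinned to 2000, the gate held 33 of 8483 and 26 of 6722 vehicle cells and 8 of 11396 and 10 of 8055 PM cells. Shallower cells were left out of that count, 778 and 1104 from the vehicle libraries and 1991 and 1214 from the PM libraries. Thinning also lowered Ly6c2. Cells that met the other conditions but held 4 or more Ly6c2 UMIs fell from 20, 17, 15 and 11 to 0, 0, 2 and 3. The thinned gate can thus admit cells that the full counts had excluded. The mean thinned share was 0.388% ± 0.00157 (SD, n = 2) with vehicle and 0.0972% ± 0.0381 (SD, n = 2) with PM, 3.99-fold lower. A second gate, added after the data were seen, replaced Ace, Treml4 and Cd300e by at least 3 of Cx3cr1, Fcgr4, Adgre4 and Spn, the last encoding the sialophorin CD43 that mature monocytes carry. On the full counts, without thinning, it held 77 and 59 vehicle cells and 12 and 22 PM cells and had a 4.85-fold lower mean share with PM. Its cells were also shallower with PM, at medians of 3214 and 3636.5 UMIs against 5219 and 6684 UMIs with vehicle. The gates shared 51, 34, 8 and 12 cells, or 75.0%, 69.4%, 50% and 75.0% of the Ace, Treml4 and Cd300e cells and 66.2%, 57.6%, 66.7% and 54.5% of the cells of the second gate. Each gene of the gate was also used alone with Csf1r, again without thinning. The size of the difference then varied, being 4.93-fold for Ace, 3.34-fold for Treml4 and 2.03-fold for Cd300e.

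**Figure D1:**
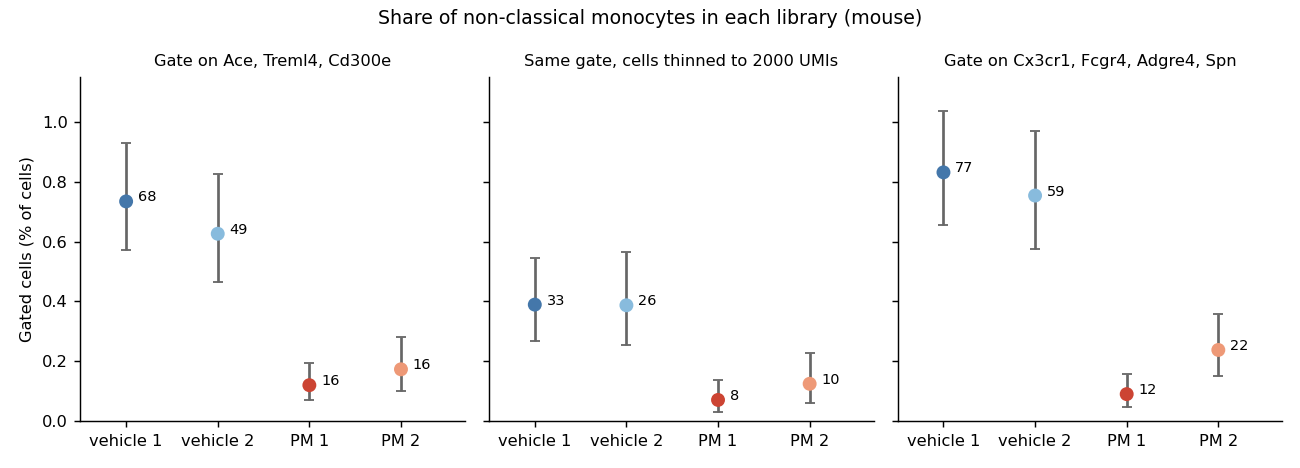
Percentage of cells in the gate for each library, with 95% Clopper-Pearson intervals as bars and the number of gated cells beside each point, for the gate on Ace, Treml4 and Cd300e, for that gate after thinning to 2000 UMIs and for the gate on Cx3cr1, Fcgr4, Adgre4 and Spn. Both PM libraries lie below both vehicle libraries in each panel.

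In the counts of whole libraries, where fewer cells of a type and less RNA per cell cannot be told apart, Ace was at 3.44 and 3.79 CPM with vehicle and at 0.873 and 1.17 CPM with PM, 3.54-fold lower in the mean and lower in 4 of 4 pairs. The gated cells held 72.9% and 62.6% of all Ace UMIs with vehicle and 41.0% and 50% with PM. Ace outside the gated cells was at 0.937 and 1.42 CPM with vehicle and at 0.515 and 0.584 CPM with PM. Cd300e was at 1.28 and 0.867 CPM with vehicle and at 0.506 and 0.679 CPM with PM in whole libraries, 1.81-fold lower. Whole-library Treml4 was at 9.79, 8.59, 7.10 and 9.83 CPM and overlapped between the groups, and the gated cells held at most 11.1% of its UMIs. Whole-library Cx3cr1 was at 18.1 and 25.3 CPM with vehicle and at 10.6 and 11.1 CPM with PM, 1.997-fold lower. Whole-library Spn was at 109, 123, 140 and 154 CPM and was lower in neither PM library. Other genes known for non-classical monocytes went both ways in whole libraries. Ear2, at 32.6 and 41.3 CPM with vehicle and 80.0 and 78.3 CPM with PM, Eno3 and Tgfbr3 were higher in both PM libraries. Adgre4, at 6.28 and 7.88 CPM with vehicle and 4.49 and 4.87 CPM with PM, and Nr4a1 were lower in both.

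The second comparison described what set these cells apart from the Ly6c2-high monocytes of the same mice. Raw counts were summed per library and gate, and edgeR's quasi-likelihood test with the mouse as a block was applied to genes the gates had not used. Of 8393 genes tested, 541 (6.45%) were higher and 781 (9.31%) lower in the non-classical cells at a Benjamini-Hochberg adjusted p under 0.05 and an absolute log2 fold change over 0.5, 15.8% in either direction. Both populations were cut from these same counts, so these calls rank genes and are no independent evidence that the cells are a separate type. The Ly6c2-high cells were deeper, with medians of 8994, 8841.5, 6782 and 6521.5 UMIs. Without vehicle replicate 1 the calls were 346 higher and 519 lower.

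Of a list of 30 genes known for non-classical monocytes, 29 were tested, 27 were higher and 2 were lower, with a median log2 fold change of 2.35 beside −0.05 over all genes tested. Cd36, the fatty acid and apoptotic cell scavenger receptor, had the largest difference at a log2 fold change of 6.71 ± 0.38 (SE). It was at 96.1 and 149 CPM with vehicle and at 366 and 299 CPM with PM in the non-classical cells and at 1.10 to 2.57 CPM in the Ly6c2-high cells. Adgre4 differed by 4.10 ± 0.18, with 547, 585, 500 and 880 CPM in the non-classical cells against 21.1 to 44.1 CPM. Ear2, an eosinophil-associated ribonuclease that monocytes also make, differed by 3.02 ± 0.15 and stood at 539 and 830 CPM with vehicle and at 1716 and 1544 CPM with PM. In the Ly6c2-high cells Ear2 was at 47.9 and 68.8 CPM with vehicle and at 219 and 189 CPM with PM. The other large differences among listed genes that averaged 50 CPM or more in either population were in Eno3, a muscle-type enolase (5.82 ± 0.35), Tgfbr3, a co-receptor for TGF-beta (5.62 ± 0.55), Dusp16, a phosphatase of JNK and p38 kinases (5.33 ± 0.25), Fabp4, a fatty acid carrier (5.11 ± 0.36), Bcl2a1b, a survival factor of the BCL2 family (4.77 ± 0.37), Hes1, a Notch target (4.35 ± 0.46), and the integrin Itgax (4.13 ± 0.33). The values after each gene are log2 fold changes ± SE over 4 libraries.

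Fcgr4 was higher by 3.21 ± 0.17 and Cx3cr1 by 2.21 ± 0.26 (log2 fold change ± SE), and in each library their non-classical level exceeded the Ly6c2-high level. Nr4a1 was higher by 1.88 ± 0.17, with 812, 968, 217 and 780 CPM in the non-classical cells, and Cebpb by 0.94 ± 0.14. Cd9, a tetraspanin, and Pglyrp1, a peptidoglycan-binding protein of neutrophil granules, were the 2 listed genes that were lower, at −0.61 ± 0.22 and −1.43 ± 0.17.

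**Figure D2:**
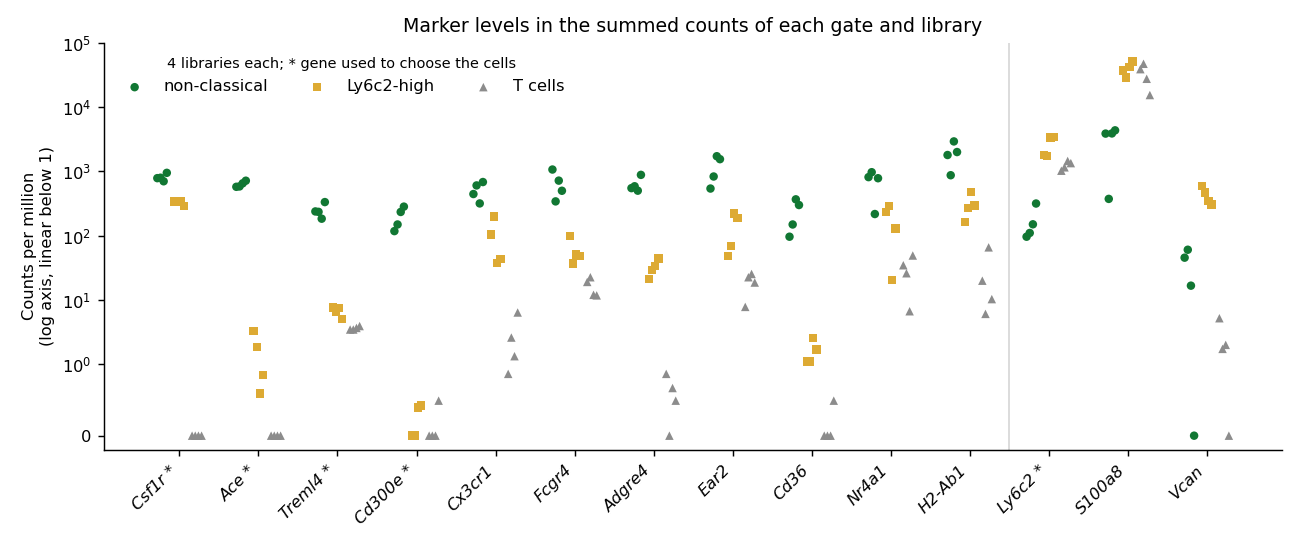
Level of 14 genes in CPM (log axis, linear below 1) in the summed counts of non-classical monocytes, Ly6c2-high monocytes and T cells, 1 point for each of 4 libraries, with the genes that chose the cells starred. Left of the line the non-classical point of each library stands above the other gates of that library, right of it the non-classical points lie below the Ly6c2-high points for Ly6c2, S100a8 and Vcan.

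Of 22 genes known for classical monocytes, 21 were tested, 14 were lower and 2 higher, with a median log2 fold change of −1.56. Vcan, a matrix proteoglycan, had a log2 fold change of −3.68 ± 0.24 and F13a1, a clotting transglutaminase, one of −3.63 ± 0.38 (SE). Vcan was at 45.4 and 60.3 CPM with vehicle and at 16.7 and 0 CPM with PM in the non-classical cells, against 303 to 592 CPM in the Ly6c2-high cells, and the levels of the populations did not overlap. Ccr2, the receptor that draws classical monocytes out of the marrow, was lower by 0.84 ± 0.14 and still stood at 1733, 1553, 1183 and 1511 CPM. Fn1, encoding fibronectin, had a log2 fold change of −3.44 ± 0.70 and Chil3, a chitinase-like protein, one of −2.83 ± 0.63, and neither passed in edgeR (Benjamini-Hochberg adjusted p = 0.0684 and 0.0831), while DESeq2 called both lower (Benjamini-Hochberg adjusted p = 0.000224 and 3.1e-05). Klf4, a factor needed for monocyte formation, and Sirpb1c, a signal-regulatory receptor, were the listed genes that were higher, by 0.79 ± 0.17 and 0.64 ± 0.17. DESeq2 called neither, and Sirpb1c also lost its call in edgeR without the 21 cells with macrophage UMIs described below.

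Several lists taken from the functions that monocytes serve had more genes called higher than lower. These counts are given without an enrichment test. Of 10 tested genes of MHC class II presentation, 7 were higher and none lower. H2-Ab1, a class II chain, was at 1792, 869, 2915 and 1992 CPM against 161 to 477 CPM in the Ly6c2-high cells, a log2 fold change of 2.39 ± 0.21. The 21 cells with macrophage UMIs described below held 521 of the H2-Ab1 UMIs and the other 128 cells 690, and without the former it was at 1178, 701, 1354 and 1413 CPM. As many of the class II genes, 7, were called higher without those cells, in a fit that called 495 of 8258 genes higher and 814 lower. Of 21 tested genes of MHC class I and peptide loading, 6 were higher and none lower. Of 23 tested genes of lipid handling and scavenging, 13 were higher and 3 lower, with a median of 1.03, among them the cholesterol exporter Abca1 (3.17 ± 0.42), the apolipoprotein Apoe (2.05 ± 0.14), and the lipid-sensing nuclear receptors Nr1h3 (5.09 ± 0.53) and Pparg (4.84 ± 0.55), the last also on the list of non-classical identity. The macrophage markers moved with this list, 9 tested genes having positive fold changes with a median of 2.44 and 4 of them being called higher. Without 21 non-classical cells with at least 3 UMIs of macrophage genes, described below, 10 genes of lipid handling were higher and 4 lower with a median of 0.50, and Nr1h3 and Pparg fell under the filter on low counts and were not tested. Of 30 tested monocyte transcription factors, 11 were higher and 4 lower, including Tcf7l2 (4.49 ± 0.30) and Batf3 (2.54 ± 0.34) as higher and Cebpd (−1.73 ± 0.20) as lower. Of 21 NF-kB genes, 8 were higher and 2 lower (4 and 1 with DESeq2), and Nfkb1 itself was higher by 0.99 ± 0.16. Of 20 tested survival genes, 8 were higher and 1 lower, with Bcl2 higher by 1.81 ± 0.33. Of 23 immediate early and handling stress genes, 9 were higher and 2 lower, led by the inducible heat shock genes Hspa1b (4.80 ± 0.18) and Hspa1a (3.53 ± 0.18).

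In other lists most of the called genes were lower in the non-classical cells. Of 16 genes of the Crip1, galectin and S100 group, 13 were lower and none higher, with S100a6 at −2.11 ± 0.20 and Lgals1, a secreted galectin, at −2.09 ± 0.20. Of 55 tested genes of the type I interferon response, 17 were lower and 1, Ifit1bl1, was higher, with a median of −0.40. Of 45 genes of oxidative phosphorylation, 17 were lower and none higher, with a median of −0.44, and DESeq2 called 8 lower and none higher. Of 22 tested innate pattern receptors, 7 were lower, including Cd14 and Tlr2, and 2 higher, although 11 fold changes were positive and 11 negative. Of 11 tested histone deacetylases and sirtuins none was called by edgeR or DESeq2, 1 had an unadjusted p under 0.05, and the median log2 fold change was 0.04.

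Of 12 neutrophil marker genes 10 were lower in the non-classical cells, with a median of −4.03, led by the granule genes Ltf (−5.12 ± 0.19), Ngp (−4.84 ± 0.17) and Camp (−4.62 ± 0.17). The 12 markers summed to 9770, 1372, 14643 and 15973 CPM in the non-classical cells, to 75563 to 142129 CPM in the Ly6c2-high cells and to 45411 to 126992 CPM in T cells. S100a9 was the most abundant of them in each of these gates. Without the 21 cells with macrophage UMIs 6 of the 12 were called lower with a median of −4.15. S100a8 and S100a9 were no longer among them, although their log2 fold changes of −4.80 and −4.51 were no smaller than the −4.30 and −3.94 with all cells (edgeR, Benjamini-Hochberg adjusted p = 0.0801 and 0.0854 without the 21 cells). The part of free RNA from lysed neutrophils in these differences was not tested. C1qa and C1qb, complement genes of macrophages, were among the 10 largest differences above 100 CPM, and the cells that carry them are described below.

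**Figure D3:**
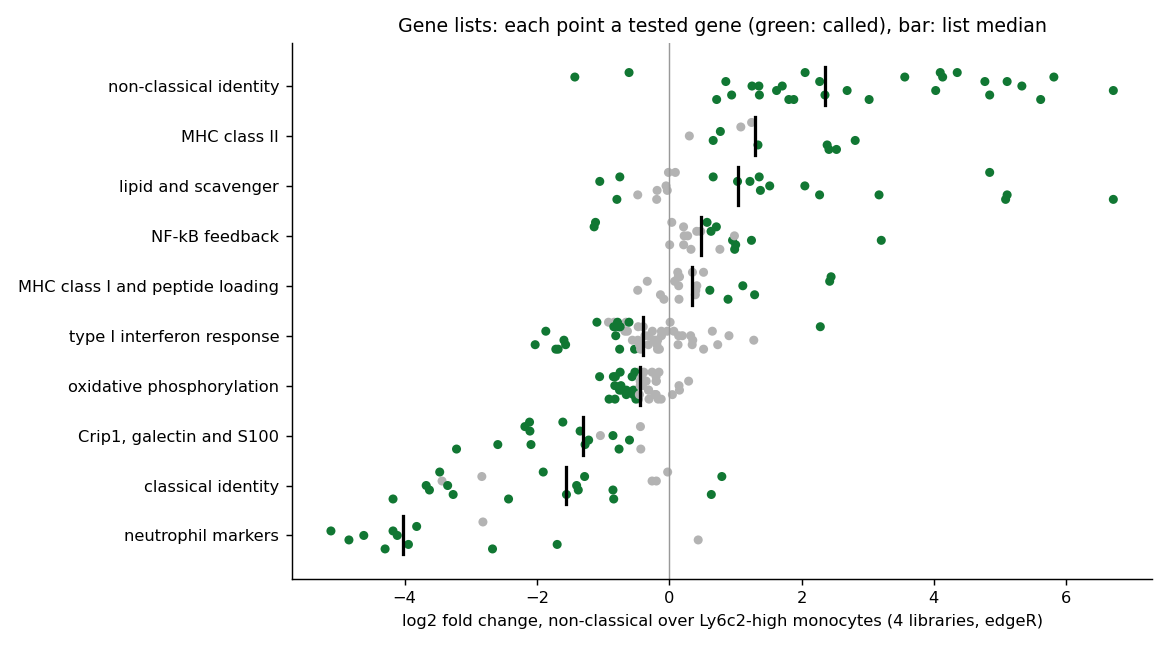
Log2 fold change of non-classical over Ly6c2-high monocytes for every tested gene of 10 lists, with called genes in green, other tested genes in grey and a bar at the list median. The medians run from 2.35 for non-classical identity to −4.03 for the neutrophil markers.

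The third comparison asked what PM changed within the non-classical cells. Of 3479 genes tested with edgeR over the 4 library sums, 13 (0.374%) were higher and 1 (0.0287%) lower with PM, 0.402% in either direction. The sums of the PM libraries came from 16 cells each, and 353 genes had an unadjusted p under 0.05, 222 of them higher with PM and 131 lower. These counts moved with single libraries, to 25 and 2 without vehicle replicate 1, 14 and 3 without vehicle replicate 2, 38 and 75 when PM replicate 1 was left out and 57 and 35 when PM replicate 2 was. The fits without PM replicate 1 and without PM replicate 2 tested 5489 and 5483 genes. They have no spread between PM mice, and their calls on single lists below stand beside these counts over all genes. Of the 13 higher genes 5 were on the list of macrophage markers, namely Axl, C1qc, Hmox1, Mrc1 and Vcam1. Of 12 macrophage markers 11 were tested, 5 were higher and all 11 had positive fold changes, with a median log2 fold change of 3.38 beside −0.01 over all genes tested.

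The macrophage markers summed to 1028 and 528 CPM in the non-classical cells with vehicle and to 7963 and 5114 CPM with PM, and Hmox1, which encodes the haem-degrading enzyme, was the most abundant. Over all libraries pooled none of the 12 was at 0, but Mrc1, Slc40a1 and Cd5l had no UMI in vehicle replicate 2. In PM replicate 1, 1 cell held 298 of the 478 macrophage marker UMIs (62.3%), and in PM replicate 2, 1 cell held 267 of 308 (86.7%). Each of these 2 cells had 2 UMIs of Ace, Treml4 and Cd300e, the lowest count that the gate admits. With vehicle the richest cell held 65 of 385 (16.9%) and 45 of 149 (30.2%). Cells with at least 3 UMIs of C1qa, C1qb, C1qc and Vcam1 were 11 of 68 and 2 of 49 with vehicle and 6 of 16 and 2 of 16 with PM. None of these 21 cells was among the called doublets.

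Fcna, a ficolin of macrophages, was at 5.34 and 0 CPM with vehicle and at 533 and 199 CPM with PM, and its PM UMIs lay in 2 cells and 1 cell. Its log2 fold change was 6.67 ± 0.76 (SE, edgeR, Benjamini-Hochberg adjusted p = 0.0013). Vcam1, the adhesion molecule of marrow macrophages, was at 69.4 and 7.09 CPM with vehicle and at 1133 and 1594 CPM with PM, where it lay in 3 cells and 1 cell. Hmox1 was at 125 and 99.3 CPM with vehicle and at 1366 and 963 CPM with PM, a log2 fold change of 3.38 ± 0.32 (edgeR, Benjamini-Hochberg adjusted p = 0.000355). A single cell held 51 of its 82 UMIs in PM replicate 1 and 51 of 58 in PM replicate 2. The growth factor Igf1 (5.80 ± 0.89), the mannose receptor Mrc1 (5.05 ± 0.74), the potassium channel Kcnj10 (4.42 ± 0.75), the lysosomal tetraspanin Cd63 (4.40 ± 0.62), the receptor kinase Axl for apoptotic cells (3.68 ± 0.48), the protease inhibitor Serpinb6a (3.43 ± 0.52), Pea15a (3.35 ± 0.56), the integrin Itgad (3.12 ± 0.59) and C1qc (2.78 ± 0.44) completed this group. Ngp, a neutrophil granule gene, was the last of the 13, at 136 and 181 CPM with vehicle and 383 and 581 CPM with PM, of whose UMIs 22 of 35 lay in 1 cell of PM replicate 2.

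With the 21 cells left out, a choice made after the data were seen, 3227 genes were tested and none was called in either direction. An unadjusted p under 0.05 was found for 304 genes, 126 higher with PM and 178 lower. The cells were chosen by UMIs that include those of C1qc and Vcam1, so the loss of these calls follows from the choice. It left 10 cells in PM replicate 1 and 14 in PM replicate 2. Hmox1 was then at 118 and 91.2 CPM with vehicle and at 141 and 99.5 CPM with PM, a log2 fold change of 0.07 (edgeR, Benjamini-Hochberg adjusted p = 0.995). Fcna and Igf1 were at 0 in all 4 libraries. DESeq2 on all cells gave 11 genes higher and 2 lower. It did not call Kcnj10, Cd63 or Ngp (DESeq2, Benjamini-Hochberg adjusted p = 0.0675, 0.0588 and 0.268). Kcnj10 rested on 3 and 0 UMIs with vehicle and 8 and 5 with PM, and Cd63 on 2 and 1 against 5 and 8. Requiring at least 3 UMIs of Ace, Treml4 and Cd300e, which removed both of the macrophage-rich cells, gave 0 genes higher and 1 lower. The share of the gated cells was 5.25-fold lower with PM without cells of at least 3 macrophage UMIs and 5.48-fold lower with the stricter gate.

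**Figure D4:**
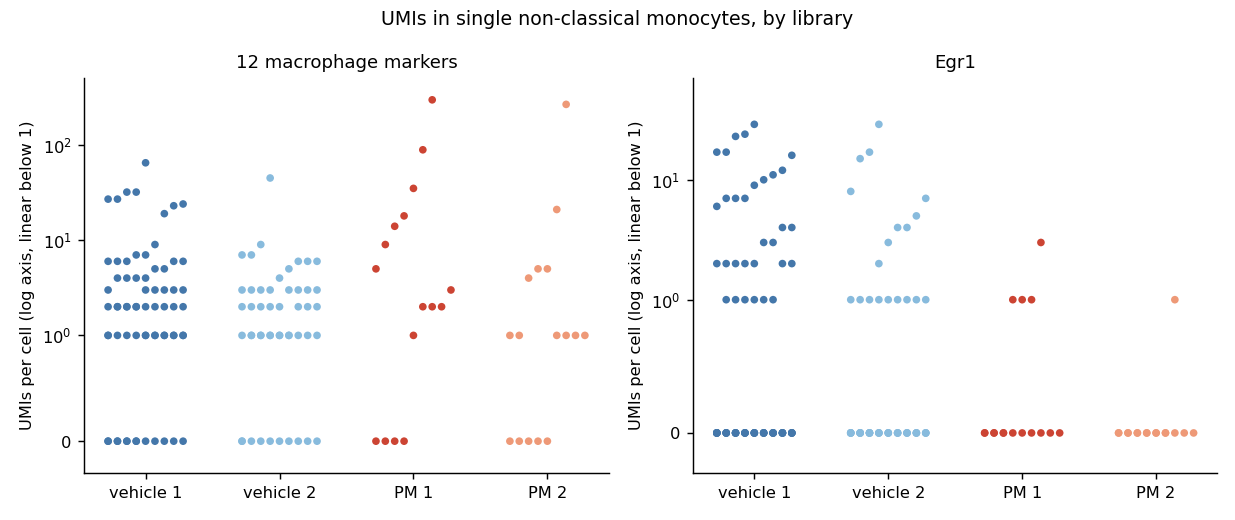
UMIs per single non-classical monocyte (log axis, linear below 1), 1 point a cell, for 12 macrophage markers summed and for Egr1, by library. A single cell in each PM library stands at 298 and 267 macrophage marker UMIs, and Egr1 exceeds 3 UMIs in vehicle cells alone.

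Egr1, an immediate early transcription factor downstream of growth factor signalling, was the gene that fell. It was at 611 and 365 CPM with vehicle and at 99.95 and 16.6 CPM with PM, a log2 fold change of −3.04 ± 0.56 (edgeR, Benjamini-Hochberg adjusted p = 0.0325). These sums were 229 and 103 UMIs in 31 of 68 and 19 of 49 cells with vehicle and 6 UMIs and 1 UMI in 4 of 16 cells and 1 of 16 cells with PM. Without the macrophage-rich cells the fold change was −3.73 and no longer passed (edgeR, Benjamini-Hochberg adjusted p = 0.172), and it did not pass either without called doublets. Immediate early genes can be induced while cells are prepared, and the part of handling in this difference was not tested.

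Of 21 tested immediate early and handling stress genes, 15 had negative fold changes and 1, Egr1, passed, with a median of −0.49. Fos was at 1415 and 1082 CPM with vehicle and at 366 and 731 CPM with PM, and Junb at 1914 and 1770 CPM against 883 and 781 CPM. Neither passed (edgeR, Benjamini-Hochberg adjusted p = 0.227 and 0.142). The count on this list moved with the PM libraries, from 1 called gene to 4 without PM replicate 1 and to 9, with a median of −0.83, without PM replicate 2, and Fos and Junb were called lower each time. The next smallest p-values among lower genes belonged to Tgfbi, a matrix protein made by monocytes, at 935 and 1099 CPM with vehicle and 416 and 365 CPM with PM, to the nucleotide kinase Nme2, to Nfkbia, the NF-kB inhibitor, at 780 and 649 CPM against 150 and 349 CPM, and to Plac8, a myeloid protein, at 4651 and 2965 CPM against 1533 and 1611 CPM. Their log2 fold changes were −1.35 ± 0.31, −1.47 ± 0.35, −1.50 ± 0.36 and −1.26 ± 0.31, and none passed (edgeR, Benjamini-Hochberg adjusted p = 0.0888, 0.114, 0.119 and 0.124). In each of Tgfbi, Nfkbia and Plac8 both PM libraries lay below both vehicle libraries. These 3 genes did pass when either PM library was left out, with the remaining one taken to vary as the vehicle libraries did, at log2 fold changes of −1.24 and −1.56 for Tgfbi, −1.13 and −2.21 for Nfkbia and −1.27 and −1.33 for Plac8.

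**Figure D5:**
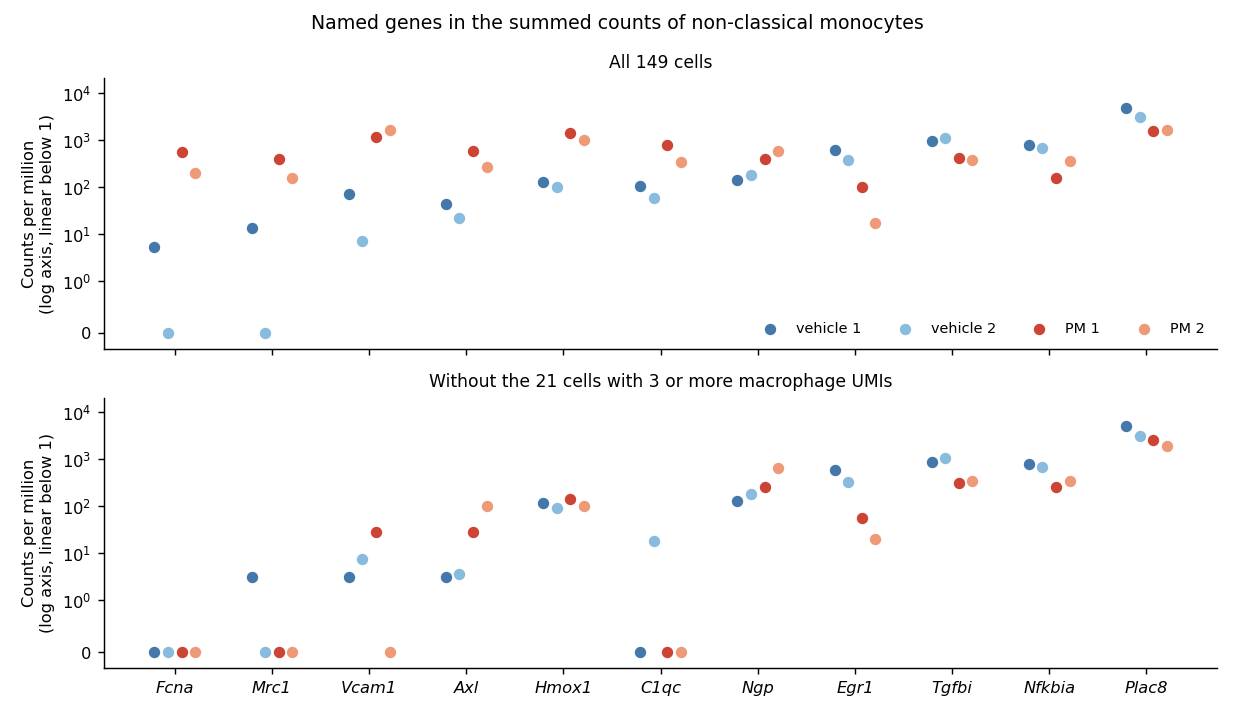
Level of 11 named genes in CPM (log axis, linear below 1) in the summed counts of non-classical monocytes of each library, for all 149 cells and without the 21 cells with at least 3 macrophage UMIs. Fcna is at 0 in all 4 libraries in the lower panel and Hmox1 lies between 91.2 and 141 CPM there, while Egr1, Tgfbi and Nfkbia stay lower in both PM libraries.

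Of 28 tested genes of non-classical identity none was called by edgeR or DESeq2, although 7 had an unadjusted p under 0.05, all of them higher with PM. They had 17 positive and 11 negative fold changes and a median of 0.31, which was −0.22 without PM replicate 2. Adgre4 was at 547 and 585 CPM with vehicle and at 500 and 880 CPM with PM, and Itgal, the integrin chain with which these cells crawl on vessels, at 908 and 975 CPM against 533 and 1212 CPM. Nr4a1 was at 812 and 968 CPM with vehicle and at 217 and 780 CPM with PM, lower in both PM libraries by unequal amounts (edgeR, Benjamini-Hochberg adjusted p = 0.533). Ear2 and Cd36 were higher in both PM libraries with log2 fold changes of 1.28 ± 0.30 and 1.48 ± 0.35 that did not pass (edgeR, Benjamini-Hochberg adjusted p = 0.114 for both). Ear2 was also higher in both PM libraries in the Ly6c2-high cells, as given above. Calls on this list appeared in fits left with 1 PM mouse. Without PM replicate 1 they were Cd300ld, Cd9, Ear2 and Pou2f2 as higher, and without PM replicate 2 they were Cd36 and Ear2 as higher and Nr4a1 and Pglyrp1 as lower.

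Of 34 tested genes of the type I interferon response none was called by edgeR or DESeq2, 10 had an unadjusted p under 0.05, all of them higher with PM, 27 had positive fold changes and the median was 0.52. Without the macrophage-rich cells 4 had an unadjusted p under 0.05 and the median was 0.44. Without PM replicate 1 there were 5 such genes higher and 2 lower, with Irf7 called higher and Ifitm3 called lower, and without PM replicate 2 there were 9 higher, with Stat2 called. Irf7, a master factor of that response, was at 56.1 and 53.2 CPM with vehicle and at 133 and 216 CPM with PM, sums of 21, 15, 8 and 13 UMIs. Of 8 tested MHC class II genes none was called by either tool, 4 had an unadjusted p under 0.05 and were higher, and the median was 0.61. Without the macrophage-rich cells 2 did and the median was 0.18. Without PM replicate 1 none was called and the median was 0.10, and without PM replicate 2 Cd74, H2-Aa and H2-Eb1 were called higher and the median was 0.99. Of 15 tested genes of the Crip1, galectin and S100 group none was called by either tool, 5 had an unadjusted p under 0.05, 4 of them lower with PM, and the median was −0.59. Without PM replicate 1 the genes Ahnak, Anxa5, Crip1, Lgals3, S100a6 and Vim were called lower and the median was −0.95, and without PM replicate 2 none was called. Of 42 tested genes of oxidative phosphorylation none was called by either tool, 3 had an unadjusted p under 0.05 and were lower, and the median was −0.27. Without PM replicate 1 the median was −0.55 and 1 gene, Uqcrh, was called lower. Of 14 tested survival genes none was called by either tool or had an unadjusted p under 0.05, and Mcl1, on which monocytes depend for survival, was at 1263 and 1309 CPM with vehicle and at 1116 and 1146 CPM with PM. Of 16 histone deacetylases and sirtuins 1, the sirtuin Sirt7, passed the filter on low counts, so the level of the classes that PM inhibits was not described in these cells.

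The 9 neutrophil markers tested all had positive fold changes with PM, 1 of them called, and a median of 1.31. Without PM replicate 1 the calls were Ltf and Ngp, and without PM replicate 2 the call was Mpo. Their summed level given above was lowest in vehicle replicate 2. Of 9 markers of T and NK cells, 6 were at 0, among them Cd3e, Trbc2 and Nkg7. Of 6 markers of megakaryocytes and platelets 5 were at 0, and of 11 markers of dendritic cells 5 were at 0, among them Zbtb46, Clec9a, Siglech and Ccr7. B cell markers summed to 131, 149, 350 and 16.6 CPM and plasma cell markers to 529, 358, 466 and 398 CPM.

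The last comparison tested whether PM changed the non-classical cells differently from the Ly6c2-high cells of the same mice, as an interaction in edgeR. Of 9261 genes tested, 23 (0.248%) had a more positive and 40 (0.432%) a more negative PM effect in the non-classical cells, 0.68% in either direction. The median difference over all genes was −0.25, and over the 3479 genes measured well in the non-classical cells it was −0.04, with 10 genes more positive and 4 more negative. The 5 largest differences, all more positive, were those of Cd5l, a scavenger protein secreted by macrophages, Fcna, Igf1, Mrc1 and Slc40a1, the iron exporter of macrophages. Slc40a1 was at 37.4 and 0 CPM with vehicle and 783 and 332 CPM with PM in the non-classical cells, in 2 cells and 1 cell of the PM libraries, and at 55.7 to 75.1 CPM throughout the Ly6c2-high cells.

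Egr1, Plac8, Tgfbi and Nfkbia had been singled out by their lower values with PM in the non-classical cells, so their levels in the Ly6c2-high cells are given beside those above as a description, without a test. Egr1 was at 336 and 266 CPM with vehicle and at 101 and 352 CPM with PM in the Ly6c2-high cells, where the groups overlapped. Plac8 was at 3029 and 1893 CPM against 2234 and 1609 CPM there and overlapped as well. Tgfbi was at 1145 and 891 CPM against 672 and 686 CPM, and Nfkbia at 479 and 353 CPM against 173 and 332 CPM, and both PM libraries were the lower for these 2 genes in both populations. DESeq2 called 3 genes more positive and 1 more negative in the interaction. Leaving out 1 library at a time gave 3 to 22 genes more positive and 5 to 13 more negative, the fewest in all without vehicle replicate 2.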

How the data were processed

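Bone marrow of 4 tumour-bearing mice was measured by droplet-based 3′ single-cell RNA-seq, with 1 library per mouse. The deposited matrices hold raw UMI counts per gene and cell barcode, which the authors made with Cell Ranger 6.0.1 (per the file headers) and which list 32285 genes. The labels name the genome build GRCm39 and the study's methods GRCm38, so no coordinate is printed.

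Groups were taken from the sample titles. Cells were kept at 300 or more genes and up to 20% mitochondrial UMIs. Cell types were set by gates on raw UMIs, as no deposited annotation was used. Doublets were scored with Scrublet in scanpy 1.11.5 (Python 3.11.15). Its automatic threshold marked 1, 118, 738 and 0 cells, so the highest scores were called up to a rate set in proportion to the number of barcodes, 705, 516, 1483 and 726 cells, of which 3, 1, 2 and 0 were gated as non-classical monocytes. Called doublets were kept, and leaving them out was an alternative.

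Raw counts were summed per library and gate and tested in R 4.3.3 with edgeR 4.0.16 (filterByExpr, TMM, robust quasi-likelihood), and calls needed an adjusted p (Benjamini-Hochberg) under 0.05 and an absolute log2 fold change over 0.5. Fold changes are given with the SE. CPM are counts per 1e6 UMIs of the sum and are not adjusted for gene length. Shares were compared with the exact permutation test, two-sided, and their intervals are Clopper-Pearson intervals. The fits were tested on simulated data. Alternatives were DESeq2 1.42.0, its size factors in edgeR, no filter on low counts, a replicate block, other gates and cell filters, thinning to 2000 UMIs and each library left out.

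The members, the 36 gene lists (657 of 666 genes were in the files) and the tests were chosen with earlier results of these data known. Named genes were the gate and marker genes, the largest called changes (10 in each direction, for PM at a mean of at least 50 CPM and with all 4 vehicle-PM pairs in that direction, between the populations at a mean of at least 100 CPM and with the same direction in 4 mice), the 5 smallest p where fewer than 5 passed, the 8 largest members of both identity lists that averaged 50 CPM or more in either population, and the 5 largest interactions. Other list members named as examples were chosen after their values were seen. A result on 1 listed gene is not reported here.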

Additional observations from a re-analysis of the deposited data

Results flagged for a closer look

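The PM effect differed between non-classical and Ly6c2-high monocytes in 5 genes picked by size, by the interaction test in edgeR. The differences, non-classical minus Ly6c2-high on the log2 scale, were 9.48 for Cd5l, 7.47 for Fcna, 6.03 for Igf1, 4.87 for Mrc1 and 4.6 for Slc40a1. With DESeq2 the difference of Igf1 passed (Benjamini-Hochberg adjusted p = 0.0477) and those of the other 4 did not, although they were 8.24 for Cd5l, 7.19 for Fcna, 5.30 for Mrc1 and 5.89 for Slc40a1. Cd5l, Mrc1 and Slc40a1 are on the list of macrophage markers. The UMIs of Cd5l, Fcna and Slc40a1 in the PM libraries lay in 2 cells of replicate 1 and 1 cell of replicate 2. Those of Igf1 lay in 1 cell of each. Cd5l was at 2.67 and 0 CPM with vehicle and at 716 and 133 CPM with PM in the non-classical cells. It was at 0 in all 4 libraries without the 21 cells described above. Without the 21 cells with at least 3 macrophage UMIs, Mrc1 had 1 UMI and Slc40a1 7 UMIs in the non-classical cells of vehicle replicate 1 and both were at 0 in the other 3 libraries, so that no PM effect could be compared.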

How the results depend on the processing

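The mean share of non-classical monocytes was lower with PM under every alternative run. On the log2 scale the difference was −2.22 of all cells kept and ran from −1.98 to −2.51 with 1 library left out. It was −1.73 of the Csf1r-positive cells and ran from −1.38 to −2.19. The gate on Cd300e alone gave the smallest differences, −1.02 and −0.51, and the groups overlapped in the second, at 2.42% and 2.95% with vehicle and 1.06% and 2.71% with PM (3 of 4 pairs lower). The Ly6c2-high share, at −0.06, had no stable sign, being 0.65 after thinning to 2000 UMIs and −0.36 to 0.19 with 1 library left out.

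Calls for PM against vehicle, 13 higher and 1 lower, varied with the processing. They were 11 and 2 with DESeq2, 37 and 21 without the filter on low counts, 11 and 0 without called doublets, 0 and 3 after thinning, 0 and 1 with at least 3 UMIs of Ace, Treml4 and Cd300e, and 0 and 0 without the macrophage-rich cells, and 14 to 57 and 2 to 75 with 1 library left out. With at least 3 UMIs the log2 fold change of Hmox1 was −0.13. The replicate block gave 22 higher and 2 lower, but the deviations of same-numbered mice correlated at −0.012 over 3484 genes, so the numbers do not pair the mice. Igf1, Pea15a and Ngp lost their call when either vehicle library was left out, and Ngp also without PM replicate 2. Mrc1 was not among the macrophage markers called without PM replicate 1. Between non-classical and Ly6c2-high monocytes, 541 higher and 781 lower became 382 and 444 with DESeq2, 426 and 491 after thinning, and 346 to 538 and 519 to 675 with 1 library left out. The interaction, 23 and 40, became 3 and 1 with DESeq2, 10 and 4 over the genes tested in non-classical cells, 3 and 45 without the macrophage-rich cells, where the fitted −4.94 of Mrc1 and −7.45 of Slc40a1 set 1 and 7 UMIs of vehicle replicate 1 against 0 elsewhere and are no direction, and 3 to 22 and 5 to 13 with 1 library left out. The cause of these changes was not tested. With 16 cells in each PM library, genes under the filter on low counts could not be compared, and some called genes rested on few UMIs.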
